A study of Mus musculus with 6 samples.

Results

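The baseline transcriptome of the adult wild type (WT) testis is described here from the 2 WT libraries of a study that sequenced 6 testis libraries. The members were chosen by their label, as the samples of genotype FVB/NJ, with earlier results of these data known, and no genotype was compared with another. FVB/NJ is an inbred laboratory strain, and the mice carried no engineered allele and received no agent. Each library came from the testis of 1 of 2 mice, which were 4-month-old, age-matched adults, and the tissue was snap-frozen after CO2 euthanasia. The other 4 libraries came from P2KO and P2P4DKO mice, which lack Padi2 or both Padi2 and Padi4, and they enter no value below. RNA was selected for poly(A) tails, so transcripts without a tail are under-represented by design, and the whole organ was used, so cells were not sorted.

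The testis makes sperm in the seminiferous tubules. Spermatogonia divide by mitosis, spermatocytes pass through meiosis, and the haploid products, the round spermatids, reshape into elongating spermatids and sperm. In the last steps histones are replaced by transition proteins and then by protamines, and the tail, acrosome and mitochondrial sheath are built. Sertoli cells nurse the germ cells inside the tubule, peritubular myoid cells surround it, and Leydig cells between the tubules make testosterone. Many spermatid messenger RNAs (mRNAs) are made before the haploid genome is compacted and are stored until they are translated.

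The deposited table gave 21939393 counts on genes for WT 1 and 26081756 for WT 2. Of 55536 annotated genes, 26506 had at least 1 count in both libraries and 24011 had none in either. A level is given as CPM, the counts of a gene scaled so that each library sums to 1000000, which does not allow for gene length, or as TPM, in which counts are first divided by the merged exon length of the gene and then scaled to the same sum. Lists ordered by CPM or counts show which genes took most reads, and the level of one gene is set against that of another only in TPM. At these depths 3 counts, taken as the floor of detection, amount to 0.137 CPM in WT 1 and 0.115 CPM in WT 2. This floor is a guide and was not used as a filter. At a TPM of at least 1 in both libraries, 17433 genes were detected, of which 13056 were protein-coding, or 59.3% of the 22015 protein-coding genes of the nuclear genome. Counts of the libraries ran closely together across genes (Spearman's rho 0.989 over the 26506 genes, which are not independent replicates). The biological coefficient of variation estimated by edgeR, the spread between the mice beyond counting error, was 0.0561 over 19319 genes.

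Among protein-coding genes, the highest levels in TPM were those of the proteins that replace histones in the spermatid nucleus. Prm2 (protamine 2, which packs sperm DNA) had 117958 counts in WT 1 and 144174 in WT 2, or 14869.8 and 14249.1 TPM. Tnp2 (transition protein 2, which precedes the protamines) had 69139 and 89075 counts, or 14064.6 and 14206.4 TPM. Prm1 (protamine 1) followed with 9370.3 TPM in WT 1 and 9633.5 in WT 2. Tnp1 (transition protein 1) stood at 8540.5 and 8606.8 TPM. The order Prm2, Tnp2, Prm1, Tnp1 was the same in both mice, although Prm2 and Tnp2, at 14559.5 ± 439 and 14135.5 ± 100 TPM (SD, n = 2), lay within 1 SD of Prm2 of each other. Together the 4 genes held 4.68% of all TPM in WT 1 and 4.67% in WT 2, but only 1.22% and 1.30% of the counts, since their transcripts are short (437 to 894 nt of merged exon). Genes shorter than 200 nt took 14.3% of TPM in WT 1 and 18.0% in WT 2, so these TPM shares do not compare the libraries.

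Prm1, Prm2, Tnp2 and Prm3 lie side by side on the minus strand of chromosome 16 in GRCm38. Tnp2 spans 10787936 to 10788660, Prm3 10790505 to 10790914, Prm2 10791380 to 10796134 and Prm1 10796326 to 10805839. Prm3, in the middle of this cluster, was far lower than its neighbours at 586 and 582 TPM. Tnp1 lies apart, on chromosome 1 from 73015074 to 73015909. On the opposite strand, the pseudogene Gm10343 and the antisense gene Gm46563 overlap Prm1, and 1700027A15Rik overlaps Tnp1. The strand setting is not given in the sources used here, but the values show that reads were counted by strand, since Gm42418, a gene described further on, kept a high count although exons of CT010467.1 on the opposite strand cover nearly all of it.

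The coding sequences of Prm1 and Tnp1 are shown because arginine codons are frequent in these abundant mRNAs, one for a protamine and one for a transition protein. They are taken from the GENCODE transcripts of GRCm38, 5′ to 3′ from the start to the stop codon, with arginine codons in capitals.
Prm1: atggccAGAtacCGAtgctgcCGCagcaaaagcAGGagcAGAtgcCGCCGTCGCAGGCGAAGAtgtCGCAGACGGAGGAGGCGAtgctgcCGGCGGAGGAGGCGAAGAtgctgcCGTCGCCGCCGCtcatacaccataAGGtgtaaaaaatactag
Tnp1: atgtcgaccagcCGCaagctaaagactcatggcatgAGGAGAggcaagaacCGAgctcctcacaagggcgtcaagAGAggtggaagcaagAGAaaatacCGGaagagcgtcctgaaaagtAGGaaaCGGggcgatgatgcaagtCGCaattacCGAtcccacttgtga

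Of the 51 codons of Prm1 before the stop, 28 encode arginine (54.9%), the highest share among 21497 protein-coding genes with a complete coding sequence. Prm2 was next with 38 of 107 codons (35.5%), and Tnp1 had 11 of 55 (20%, rank 17). Tnp2 had 16 of 117 (13.7%, rank 166), while Prm3, with 2 of 101 codons, and Smcp, with none of 143, did not share the feature. The median gene had 5.36%. Weighted by TPM, the average coding sequence of the libraries held 7.52% arginine codons in WT 1 and 7.58% in WT 2, and without these 4 genes 6.02% and 6.01%. Cysteine codons made up 17.6% of Prm1 and 22.4% of Smcp, whose product is a cysteine-rich protein of the sperm mitochondrial sheath. Of other coding sequences rich in arginine, the splicing factor genes Srsf3, Srsf7 and Srsf2 had 32.6 and 31.1, 59.0 and 51.8, and 102 and 84.8 TPM, and Tchh, which ranked next after Prm2, had 1.05 and 0.956.

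The 250 bases before the RefSeq start sites of Prm2, Tnp1 and Tnp2 (GRCm38.p6, minus strand, read 5′ to 3′) are shown because these genes shared the highest levels and a post-meiotic onset is well known for them. Capitals mark matches to the cyclic AMP response element-like motif TGANNTCA or to the TATA motifs TATAAA and TATATA, searched on both strands after the sequences had been seen. A match is only a description of the letters.
Prm2, chr16:10792106-10792355: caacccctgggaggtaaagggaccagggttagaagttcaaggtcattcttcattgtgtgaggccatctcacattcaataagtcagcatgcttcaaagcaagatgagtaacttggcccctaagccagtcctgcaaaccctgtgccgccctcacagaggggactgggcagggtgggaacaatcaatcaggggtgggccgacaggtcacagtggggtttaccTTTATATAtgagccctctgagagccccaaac
Tnp1, chr1:73015900-73016149: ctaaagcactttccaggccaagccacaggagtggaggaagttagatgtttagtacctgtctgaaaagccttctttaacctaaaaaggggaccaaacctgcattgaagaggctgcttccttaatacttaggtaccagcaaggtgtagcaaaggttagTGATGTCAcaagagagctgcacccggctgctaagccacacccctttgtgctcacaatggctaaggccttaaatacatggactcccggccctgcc
Tnp2, chr16:10788656-10788905: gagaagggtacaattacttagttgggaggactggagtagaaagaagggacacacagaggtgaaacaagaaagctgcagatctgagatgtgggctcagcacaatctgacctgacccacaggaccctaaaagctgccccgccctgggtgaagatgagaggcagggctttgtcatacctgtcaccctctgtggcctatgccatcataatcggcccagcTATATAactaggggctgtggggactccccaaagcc

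The motif TGANNTCA was found in Tnp1, from base 94 to base 87 before the start, and in Prm1, as TGACTTCA from base 64 to base 57, in a window not shown since 63 of its bases lie in GENCODE exons. Of the windows shown, that of Tnp1 has 10 such bases, that of Tnp2 has 5 and that of Prm2 has none. It was in 11.9% of all 32851 windows of this length, and in 21 of the 104 windows (20.2%) matched to 77 of the 100 protein-coding genes with the highest TPM. In Prm2 the motif TATATA, with an overlapping reverse match to TATAAA, ends 24 bases before the start, and in Tnp2 TATATA ends 30 bases before it. TATATA was in 5.25% of all windows and TATAAA in 12.4%, against 4 (3.85%) and 8 (7.69%) of the 104 windows.

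The 30 protein-coding genes with the highest CPM ran from Prm2, at 5377 CPM in WT 1 and 5528 in WT 2, to Tuba3b, an alpha-tubulin gene, at 1561 and 1582. They are plotted in CPM and in TPM for each library.

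**Figure D1:**
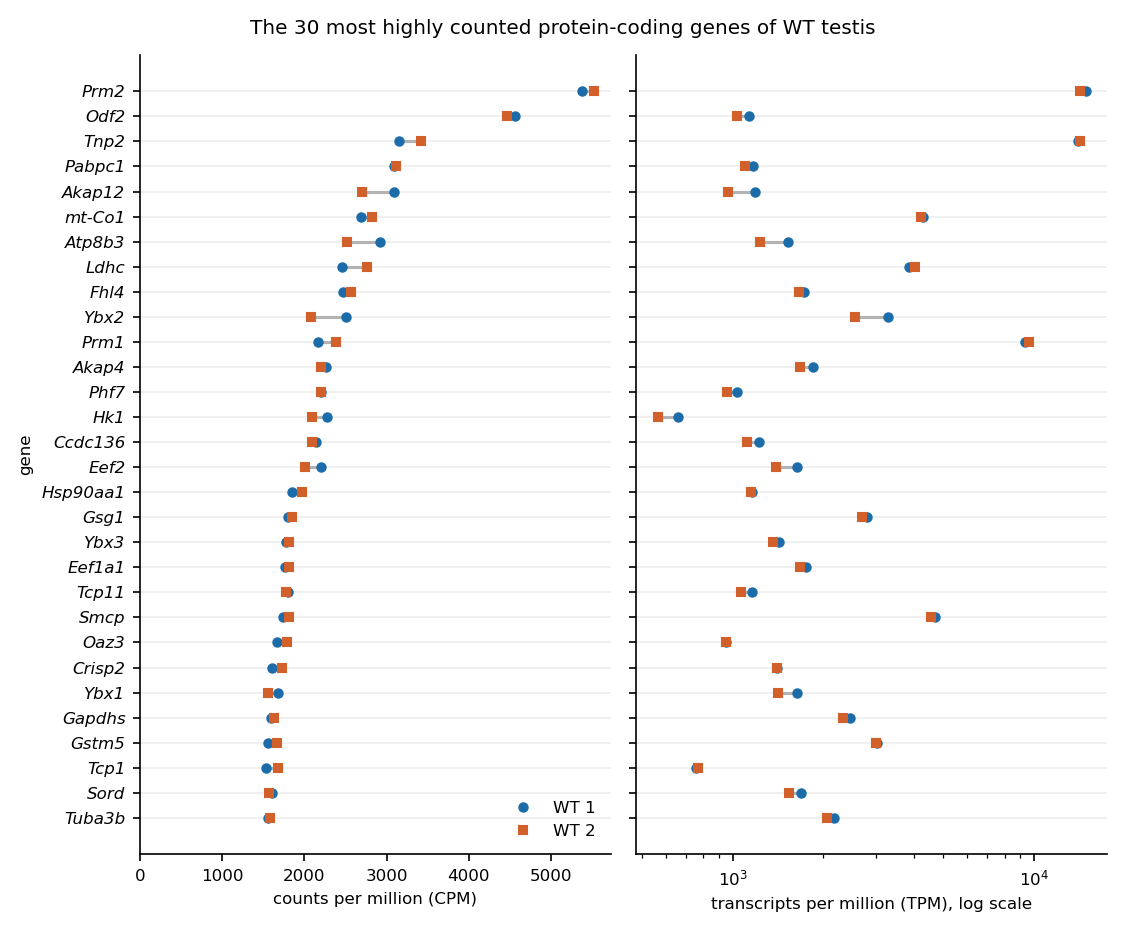
The 30 protein-coding genes with the highest mean CPM, in order, with CPM on the left and TPM on a log scale on the right. Circles are WT 1, squares are WT 2 and grey lines join the libraries. Prm2 leads on both axes, while Odf2, next by CPM, falls to 1136 and 1038 TPM.

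Several of the leading genes encode parts of the sperm tail. Odf2, an outer dense fibre protein, had 4557 CPM in WT 1 and 4466 in WT 2. Odf1, another outer dense fibre protein, reached 3026 and 2969 TPM on a shorter transcript. Akap4, the main structural protein of the fibrous sheath and an X-linked gene, had 1846 and 1679 TPM. Smcp had 4698 and 4571 TPM, next after the transition proteins and protamines 1 and 2, and Ropn1l, a ropporin-like protein of the fibrous sheath, had 2303 and 2362. Of genes known from the acrosome or sperm surface, Atp8b3, a phospholipid flippase, had 1529 and 1232 TPM, and Crisp2, a cysteine-rich secretory protein, 1403 and 1407.

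Several enzyme genes were among the 30. Ldhc, the germ cell lactate dehydrogenase, had 3849 TPM in WT 1 and 4030 in WT 2. Gapdhs, the sperm glyceraldehyde-3-phosphate dehydrogenase, had 2452 and 2326. Hk1, hexokinase 1, was among the most highly counted genes at 2273 and 2086 CPM, but stood at only 659 and 563 TPM over its 8532 nt of merged exon. Sord, sorbitol dehydrogenase, had 1685 and 1543 TPM, and Gstm5, a glutathione S-transferase, 3006 and 3004. By scaled counts, the log2 ratios of WT 2 to WT 1 of these 5 genes ran from −0.14 for Hk1 to 0.15 for Ldhc.

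Others encode mRNA-binding proteins and translation factors. Ybx2, the germ cell Y-box protein that binds stored mRNA, had 3289 TPM in WT 1 and 2544 in WT 2, or 2916.3 ± 526 (SD, n = 2), the widest spread among the 30. Its relatives Ybx3 (1424 and 1362 TPM) and Ybx1 (1638 and 1415 TPM) were lower. Pabpc1, the cytoplasmic poly(A)-binding protein, had 3093 and 3113 CPM, and the elongation factors Eef2 and Eef1a1 had 2205 and 2006, and 1768 and 1806 CPM. Of the 30 genes, mt-Co1, Eef2, Hsp90aa1, Eef1a1, Ybx1, Sord and Tuba3b have near-identical transcripts of other genes, and since reads that map to more than 1 place were not counted, their levels are uncertain. Oaz3 and Tcp11 also have 1 such transcript each, which had 964 and 1031, and 0 and 0 counts. Tcp11 overlaps 4930526A20Rik and AC132460.1 on its own strand. Oaz3, an ornithine decarboxylase antizyme of spermatids, had 949 and 950.2 TPM, and it overlaps Mrpl9 and Tdrkh on the opposite strand.

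Other genes of the top 30 had varied roles. Akap12, a scaffold of protein kinase A, had 3093 CPM in WT 1 and 2702 in WT 2. Fhl4, a LIM domain gene, had 2473 and 2565 CPM, and Phf7, a PHD finger gene, had 2205 and 2197. Ccdc136 (2137 and 2095 CPM), Gsg1 (1797 and 1844.5) and Tcp11 (1796 and 1776) are known for expression in the testis. Tcp1, a subunit of the cytosolic chaperonin, had 1535 and 1679 CPM.

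Counts were spread over many genes. The 10 most highly counted genes of a library held 4.13% of counts in WT 1 and 4.49% in WT 2, the top 100 held 15.8% and 16.1%, and 981 and 987 genes held the first 50% of counts. Of the top 30 genes of all types 26 were shared by the libraries, and of the top 100 genes 97 were shared. Among protein-coding genes at TPM of at least 1 in both, 69 exceeded a mean TPM of 1000 and took 9.84% ± 0.0551 of counts (SD, n = 2). Another 1437 lay between 100 and 1000 and took 41.0% ± 0.0651, and 5766 lay between 10 and 100 and took 36.8% ± 0.418. The 5784 genes between 1 and 10 took 5.88% in WT 1 and 5.81% in WT 2.

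By type, protein-coding genes of the nucleus took 94.2% of counts in WT 1 and 93.5% in WT 2. Long non-coding RNA (lncRNA) genes took 3.76% and 4.20%, pseudogenes 0.931% and 0.969%, mitochondrially encoded genes 0.636% and 0.698%, and genes annotated as microRNA (miRNA) 0.324% and 0.439%. Detected at TPM of at least 1 in both were 2936 of 10155 lncRNA genes (28.9%), 1024 of 13525 pseudogenes (7.57%) and 92 of 2207 miRNA genes (4.17%). The lncRNA and miRNA shares were higher in WT 2. Single genes weighed on both, since Gm42418, Gm23935 and Gm24270, described below, were themselves higher in WT 2. Without Gm42418 the lncRNA share fell from a mean of 3.98% to 2.79%, and nearly all miRNA counts fell on Gm23935 and Gm24270. By scaled counts the median log2 ratio of WT 2 to WT 1 was 0.08 over 1127 lncRNA genes with a mean of at least 100 counts.

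The gene with the most counts of any type was not protein-coding. Gm42418, annotated as a lincRNA (chromosome 17, 39846958 to 39848788, plus strand), had 240757 counts in WT 1 and 353091 in WT 2, or 10974 and 13538 CPM. The annotated ribosomal RNA (rRNA) gene CT010467.1 has exons over nearly all of it on the opposite strand and had 91 and 125 counts, and Gm26917 lies just upstream with 10844 and 12372 counts. How much of the count of Gm42418 is rRNA was not tested.

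Among genes annotated as miRNA nearly all counts fell on a pair of identical short genes, whose sequence is shown because these genes moved the TPM scale. It is taken from the GENCODE transcripts, in lower case.
Gm23935 and Gm24270: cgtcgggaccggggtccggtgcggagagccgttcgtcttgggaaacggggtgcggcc

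Gm23935 (chromosome 16, 11144125 to 11144181) had 64090 counts in WT 1 and 103556 in WT 2, and Gm24270 (chromosome 9, 56223715 to 56223771) had 5433 and 8900. Gm24245 has the same sequence and was listed at 0 in both libraries, and Gm24187, 98.2% identical, had 94 and 127 counts, so the split among these genes is uncertain. Gm24270 overlaps Peak1 on the same strand, and Gm23935 overlaps Zc3h7a on the opposite strand. Gm23935 and Gm24270 are only 57 nt long, so a given count weighs heavily in TPM. Together they took 13.7% of the TPM of WT 1 and 17.4% of that of WT 2, which lowers the TPM of every other gene in WT 2 to 0.957 of its value relative to WT 1. For this reason the libraries are compared below by count ratios scaled with TMM and not by TPM.

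The other leading lncRNA genes were close to equal in the mice. 4930571K23Rik had 967 CPM in WT 1 and 936 in WT 2, 1700001L05Rik 438 and 452, Rbakdn 397 and 422, and Wbscr25 389 and 402. Gm2762, 4930449C09Rik, Gm11837 and 1700008K24Rik followed, from 363 and 366 CPM down to 287 and 318. In TPM Rbakdn led these genes at 1543 and 1529. What these RNAs do is not given in the annotation used here.

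The leading pseudogenes were BC106175, at 662 and 663 CPM, 1700001J11Rik at 553 and 574, 4930451G09Rik at 443 and 420, Gm1821 at 303 and 297 and Gm7444 at 280 and 289. The last is 96% identical to 1700001J11Rik, and Gm1821 is 97% identical to Ubb, which encodes polyubiquitin. Only reads that mapped to a single place were counted, so the split within each of these pairs is uncertain.

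Among the protein-coding genes of the mitochondrial genome, counts were uneven. mt-Co1 (subunit 1 of cytochrome c oxidase) had 58862 counts in WT 1 and 73723 in WT 2, mt-Cytb (cytochrome b) 19350 and 26329, and mt-Nd1 (a subunit of complex I) 14797 and 20072. By contrast, mt-Co2 had 18 and 28 counts, mt-Atp6 9 and 16, mt-Co3 6 and 19, mt-Nd3 0 and 1, and mt-Nd4l 1 and 1. mt-Atp8 was as low, with 1 and 0 counts, and no near-identical annotated transcript was found for it. Each of the 5 named before it has a full-length copy on chromosome 1 at 99.7% to 100% identity (Gm28661, Gm10925, Gm28437, Gm28438 and Gm10222), while the copy of mt-Co1 on that chromosome, Gm29216, is 492 nt long against 1545, and its full-length copy on chromosome 2, Gm13340, is 97.6% identical. The copies themselves had 29 and 41, 42 and 69, 43 and 38, 0 and 1, and 0 and 0 counts. Since only uniquely mapped reads were counted, the levels of those 5 genes are uncertain. The level of mt-Atp8 is uncertain too, because the search covered annotated transcripts only. On chromosome 1 the copies of its neighbours mt-Co2 and mt-Atp6 lie close together (Gm28661 from 24614885, Gm10925 up to 24614651). The bases between these copies were not searched.

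Markers of germ cells and of somatic cells of the testis were both detected, at very different levels. For 14 lists of markers, 4 for germ cell stages and 10 for somatic cells and neighbouring tissues, the TPM of the members were summed. The 4 germ cell lists held 96.7% ± 0.0671 (SD, n = 2) of the TPM summed over all 14, and the elongating spermatid list alone 90.4% ± 0.186. In whole tissue, fewer cells of a type and less RNA per cell cannot be told apart, and lists differ in number and choice of genes, so these are not shares of cells or of all RNA. The elongating spermatid list also holds Prm2, Tnp2, Prm1, Tnp1 and Smcp, which were known to be highest when the lists were chosen, so its share is a description only.

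**Figure D2:**
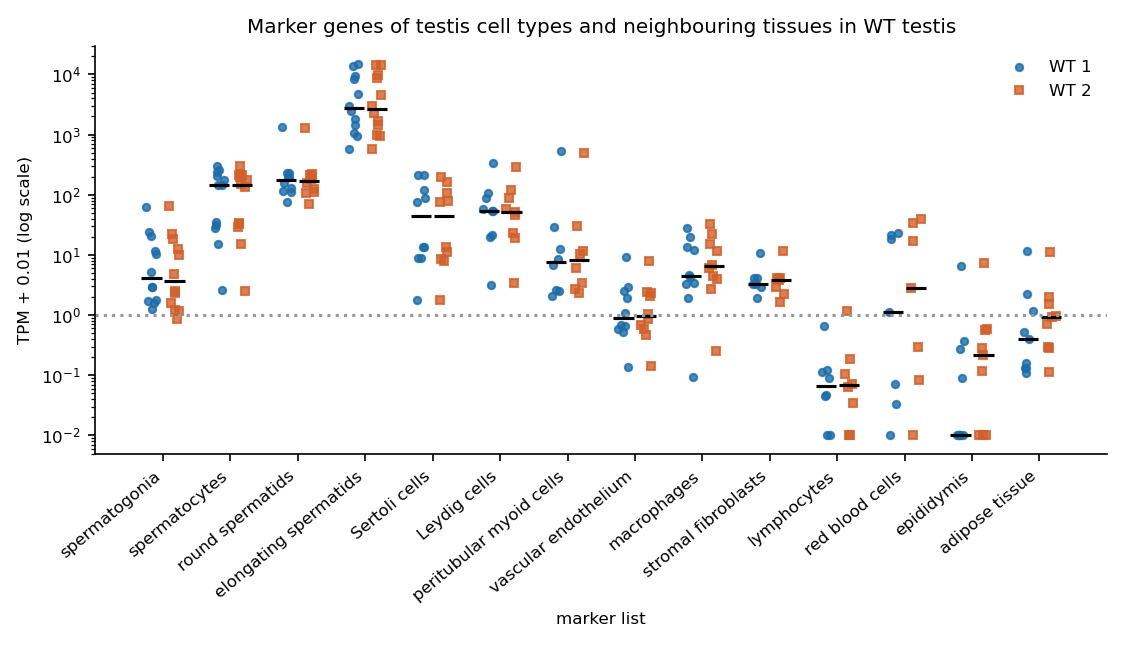
TPM plus 0.01, on a log scale, of each marker gene in 14 lists, with circles for WT 1, squares for WT 2 and black bars for the median of the list in each library. The dotted line marks a TPM of 1. Elongating spermatid markers lie highest, with medians of 2739 and 2647, and lymphocyte markers have medians below 0.1.

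All 12 elongating spermatid markers were detected, from Prm3 to Prm2, with a summed TPM of 62880.1 in WT 1 and 62186 in WT 2. Besides the nuclear proteins they included Hils1, a spermatid linker histone-like protein, at 1422 and 1436 TPM, and Tssk6, a testis-specific serine kinase, at 1055 and 976. The 10 round spermatid markers summed to 2754 and 2655 TPM. Dkkl1, a secreted protein of the acrosome, made up much of that at 1316 and 1271, while Spaca1 (199 and 195), Sun5 (196 and 184) and Izumo1 (76.3 and 69.9), which encodes the sperm protein of egg fusion, were lower.

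The 12 spermatocyte markers were also all detected and summed to 1569 and 1494 TPM. Sycp3, a gene of the synaptonemal complex, the structure that pairs homologous chromosomes, was highest at 296 and 295 TPM. Piwil1, a partner of piRNAs, followed at 254 and 215, and Tex101, a germ cell surface protein, at 235 and 212. Of other genes of the synaptonemal complex, Sycp1 had 205 and 199 and Sycp2 145 and 135, with Ccna1, a germ cell cyclin (176 and 174), and Hormad1, a protein of the meiotic chromosome axis (146 and 151), between them. Genes of recombination were lower. Spo11, which makes the meiotic breaks, had 27.9 and 29.4 TPM, Dmc1, a strand-exchange protein, 15.2 and 15.3, and Prdm9, which sets the break sites, 2.64 and 2.54.

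Spermatogonial markers were far lower, at 147 and 144 TPM summed over 12 genes. Uchl1 accounted for 62.9 and 65.9 of these, and Id4 and Dmrt1 for 24.3 and 22.2, and 20.8 and 18.3. The stem cell receptor genes Gfra1 (1.75 and 1.16 TPM, 85 and 72 counts) and Ret (1.72 and 1.58) and the transcription factor gene Zbtb16 (2.90 and 2.32) lay just above 1. Kit, the receptor of differentiating spermatogonia, had 5.29 and 4.81, and Stra8, a gene of meiotic entry, 11.6 and 12.7. Nanos3 had 13 and 9 counts and did not reach a TPM of 1 in WT 2.

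Somatic markers of the testis were detected in full. The 10 Sertoli markers summed to 761 and 671 TPM, led by Amhr2 (213 and 198), Aard (216 and 165), and Inha, the alpha subunit of inhibin (122 and 108). Fshr, the receptor of follicle-stimulating hormone, had 37 and 47 counts. The 9 Leydig markers summed to 736 and 701 TPM. Cyp17a1, an enzyme of androgen synthesis, had 333 and 295, Hsd3b1 106 and 118, Star, the carrier of cholesterol into mitochondria, 52.9 and 45.7, and Insl3 19.7 and 22.8. The 8 peritubular myoid markers summed to 589 and 571 TPM, but Actg2, a smooth muscle actin, made up 525 and 504 of it, and Acta2, Myh11 and Cnn1 had 29.0 and 30.3, 6.82 and 5.98, and 2.51 and 3.46. The sum thus rests mostly on Actg2, and which cells gave its counts was not tested in this whole tissue.

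Markers of vessels, stroma and blood were detected at low levels. Endothelial markers summed to 19.9 and 18.4 TPM, with 5 of 10 at TPM of at least 1 in both, and fibroblast markers to 30.6 and 30.3. Macrophage markers summed to 91.6 TPM in WT 1 and 106 in WT 2, led by Lyz2 (28.4 and 32.8) and C1qb (19.9 and 22.6). Lymphocyte markers summed to 1.02 and 1.59, and Cd79a was at 0 in both. Of 9 epididymal markers, Lcn5, Rnase9 and Adam7 were at 0 in both libraries and Rnase10, at 95 and 138 counts, held most of the sum of 7.14 and 9.05 TPM. Of 9 adipose markers, Adipoq (140 and 174 counts) and Plin1 (92 and 103) exceeded a TPM of 1 in both. Cfd had 1 and 16 counts.

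Globin genes of the red blood cell list were higher in WT 2. Hba-a1, an alpha-globin gene, had 168 counts in WT 1 and 358 in WT 2, and Hbb-bs, a beta-globin gene, 146 and 295. Hba-a2 was listed at 0 in both, and its transcript is 99.8% identical to that of Hba-a1 over 97.1% of the shorter. Alas2, an enzyme of heme synthesis, had 386 and 464 counts, which is a ratio near 1 after scaling, while Slc4a1, a red cell membrane gene, had 1 and 4 counts. Alas2 thus did not follow the other members of its list.

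Immediate early genes, which respond within minutes to handling of a tissue, summed to 79.1 and 80.0 TPM over 13 genes. Nr4a1 held 36.1 and 34.5 of these, Jun had 7.67 and 7.56, and Fos rested on 7 counts in WT 1 and 29 in WT 2. Of the 5 deiminase genes, which encode the enzymes that convert arginine to citrulline, Padi6 was highest at 10.5 and 12.8 TPM and Padi3 followed at 6.05 and 5.18. Padi2, with 47 and 64 counts, was near a TPM of 1, and Padi1 and Padi4 were below it.

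Detected X-linked genes had a lower median level than detected autosomal genes. Sex chromosomes are silenced in meiosis and many of their genes stay low in spermatids. Of 948 X-linked protein-coding genes, 528 (55.7%) had a TPM of at least 1 in both libraries, against 60.0% of 20807 autosomal genes, a share that lay within the range of single autosomes (49.98% to 68.3%). Among detected genes the median TPM of X-linked genes was 6.13 in WT 1 and 5.85 in WT 2, and that of autosomal genes 13.4 and 12.6, a ratio of 0.457 and 0.465. The X median lay below that of every autosome, which ranged from 9.86 to 16.3 by the mean of the libraries. Only 19 X-linked genes (3.60% of those detected) exceeded a mean TPM of 100, against 9.15% to 15.2% by autosome. Genes with a TPM of at least 5 had a ratio of 0.603, and the longest transcript in place of merged exons gave 0.414.

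**Figure D3:**
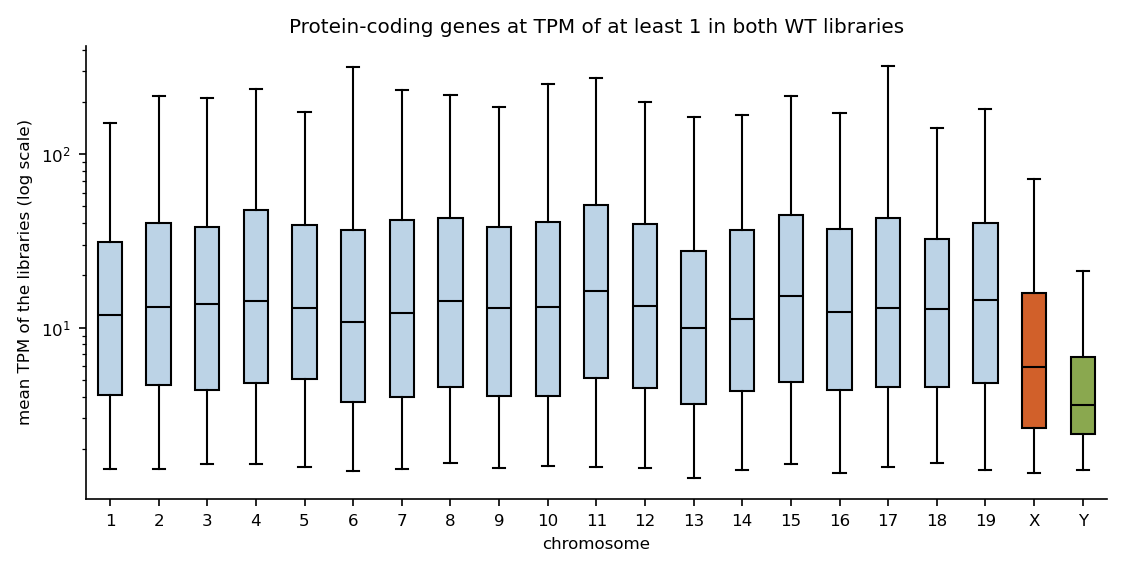
Mean TPM of the libraries, on a log scale, of protein-coding genes with a TPM of at least 1 in both, by chromosome. Boxes span the quartiles, black lines are medians and whiskers reach the 5th and 95th percentiles of genes. The X (orange) has a median of 5.99 and the Y (green) of 3.59, below all autosomes (blue).

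Of X-linked genes, Akap4 was by far the highest, with 49590 counts in WT 1 and 57529 in WT 2. Tsga8 had 547 and 465 TPM, Cypt1 301 and 351, Hypm 329 and 318, and Gm6760 263 and 268. Xist, the RNA of X inactivation, had 17 and 18 counts over its 17946 nt.

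On the Y chromosome 35 of 183 protein-coding genes reached a TPM of 1 in both libraries. Eif2s3y, a translation initiation factor gene needed by spermatogonia, was the highest of the listed Y genes with 814 and 1066 counts, followed in TPM by Uba1y at 9.00 and 8.04, Zfy1 at 6.29 and 6.75, Zfy2 at 5.55 and 6.88 and Ddx3y at 5.48 and 5.66. Sry rested on 5 and 13 counts. Ssty1 and Ssty2, multicopy genes of spermatids, were listed at 0, and their transcripts have 200 and 266 near-identical transcripts of other genes, which held 228 and 336, and 1871 and 2250 counts. Sly likewise has 140 such copies, so levels of these families cannot be read from single members.

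Germ cells use their own versions of many housekeeping genes, often autosomal copies of X-linked genes. In 25 of 28 pairs of a germ cell gene and its somatic relative, the germ cell gene was higher in both libraries, and in 21 at least 4-fold. The median log2 ratio of TPM was 3.82. In all 9 pairs whose somatic gene is X-linked the germ cell gene was higher, with a median log2 ratio of 5.15, against 3.00 for the 19 pairs with an autosomal somatic gene. Sizes depended on the gene length used. With the longest transcript in place of merged exons, 8 pairs moved by over 1.5-fold and 19 were at least 4-fold. Several somatic genes, among them Gapdh, Tuba1a, Rpl10, Hspa8, Pgk1 and Cycs, have near-identical transcripts of other genes. Some germ cell genes, among them Tuba3a and Zfy2, have them too. Since only uniquely mapped reads were counted, the sizes of these ratios are uncertain.

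**Figure D4:**
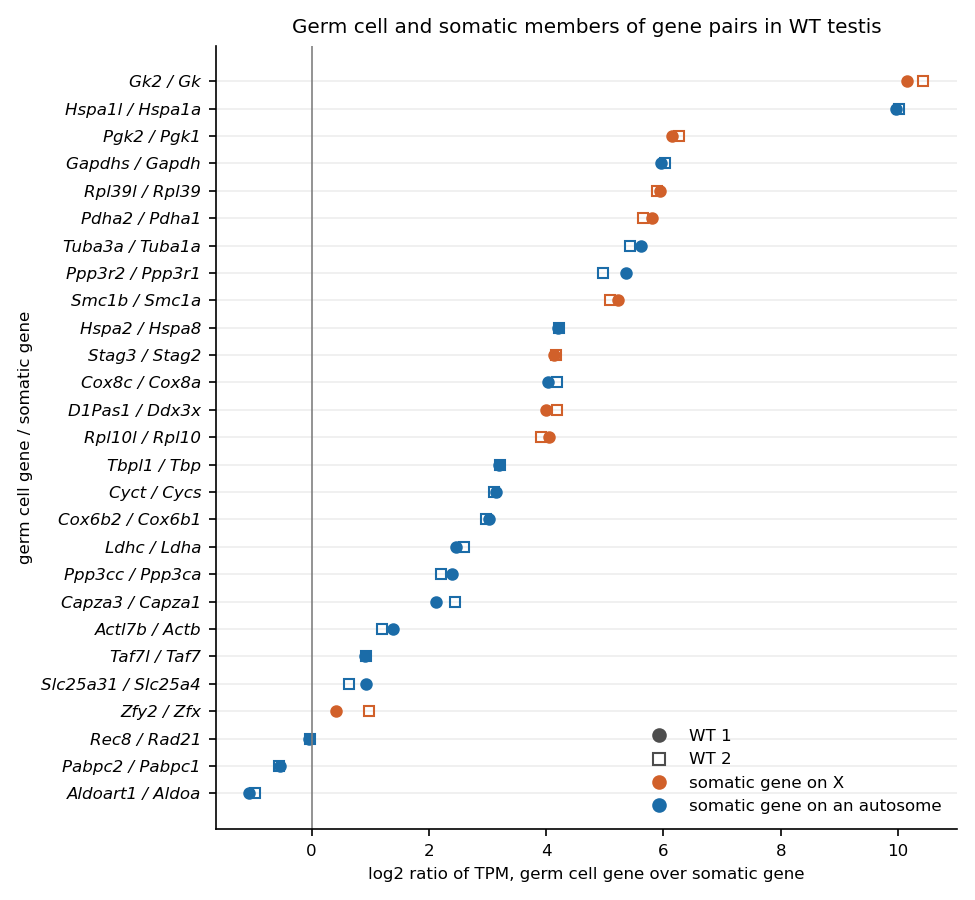
Log2 ratio of TPM of the germ cell gene to its somatic relative in 27 of the 28 pairs, with filled circles for WT 1 and open squares for WT 2, orange where the somatic gene is X-linked and blue where it is autosomal. Gk2 over Gk leads at 10.1 and 10.4, and only 3 pairs lie left of 0.

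Gk2, a glycerol kinase gene, had 741 TPM in WT 1 and 740 in WT 2 against 0.655 and 0.536 for X-linked Gk. Hspa1l, a spermatid heat shock protein, had 953 and 921 TPM, whereas Hspa1a had 25 and 30 counts and its near-identical partner Hspa1b 72 and 69. Pgk2, the sperm phosphoglycerate kinase, had 1241 and 1207 against 17.6 and 15.6 for X-linked Pgk1. Pgk1 has 4 near-identical transcripts of other genes, which held 1 and 1 counts, so its level from uniquely mapped reads is uncertain. Gapdhs was 5.96 and 6.02 log2 units above Gapdh, but Gapdh has 80 near-identical transcripts, mostly pseudogenes, which held 2407 and 2949 counts. Pdha2 exceeded X-linked Pdha1, both subunits of pyruvate dehydrogenase, by 5.81 and 5.64.

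Ribosomal and cohesin genes followed the same order. Rpl10l had 494 and 463 TPM against 29.7 and 30.8 for Rpl10, and Rpl39l 400 and 373 against 6.52 and 6.28 for Rpl39, both partners being X-linked, and Rpl10 has near-identical pseudogenes. Of meiotic cohesin subunits, Smc1b exceeded X-linked Smc1a by 5.22 and 5.09 log2 units and Stag3 exceeded X-linked Stag2 by 4.13 and 4.16. Rec8, however, was at the level of Rad21 (61.9 and 57.6 against 63.9 and 58.6 TPM), and the order of this pair turned with the longest transcript as length (0.29 on the log2 scale).

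Of further pairs, Hspa2 exceeded Hspa8 by 4.20 and 4.23 log2 units, but Hspa8, with 2899 and 3216 counts, has 6 near-identical transcripts that held 1116 and 1100. Cyct, the testis cytochrome c, exceeded Cycs by 3.14 and 3.12, but Cycs has 4 near-identical transcripts, with 2 and 3 counts, so its level is uncertain. Cox6b2 and Cox8c, subunits of cytochrome c oxidase, exceeded Cox6b1 and Cox8a by 3.03 and 2.98, and by 4.03 and 4.19. D1Pas1, an RNA helicase gene, exceeded X-linked Ddx3x by 4.00 and 4.19.

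Smaller gaps included those of Ldhc over Ldha (2.47 and 2.60), Actl7b over Actb (1.39 and 1.21), Taf7l over Taf7 (0.91 and 0.94), Slc25a31 over Slc25a4 (0.94 and 0.64) and Zfy2 over Zfx (0.41 and 0.98). In Zfy2 over Zfx the libraries differed by more than 0.5 on the log2 scale, with 153 and 242 counts on Zfy2. Zfy1 and Zfy2 are near-identical to each other (96.1%), and Zfx has a near-identical pseudogene with 174 and 150 counts, so these levels are uncertain. The somatic gene was higher in Aldoart1 against Aldoa (−1.06 and −0.96) and in Pabpc2 against Pabpc1 (−0.53 and −0.55).

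The mice differed little from each other. After TMM scaling, 89.9% of 12782 genes with a mean of at least 100 counts lay within 1.2-fold, and 65.7% within 1.1-fold. With a single library on each side there is no test and no p-value, and a ratio is given with an exact 95% interval that covers counting error only. At least 1.5-fold higher in WT 2 were 37 genes (0.289% of those compared), and at least 1.5-fold higher in WT 1 were 21 (0.164%). Of these 58 genes, 53 had a mean of 100 to 300 counts. By type the 37 comprised 18 of the 1127 lncRNA genes compared, 16 of 11286 protein-coding genes and 3 of 286 pseudogenes, and the 21 comprised 4, 15 and 2.

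The spread of ratios exceeded counting error most clearly for abundant genes. For 391 genes with a mean of at least 10000 counts the SD of the log2 ratio was 0.10, where counting alone gives 0.02. For 3801 genes with 100 to 300 counts it was 0.22, where counting gives 0.16.

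**Figure D5:**
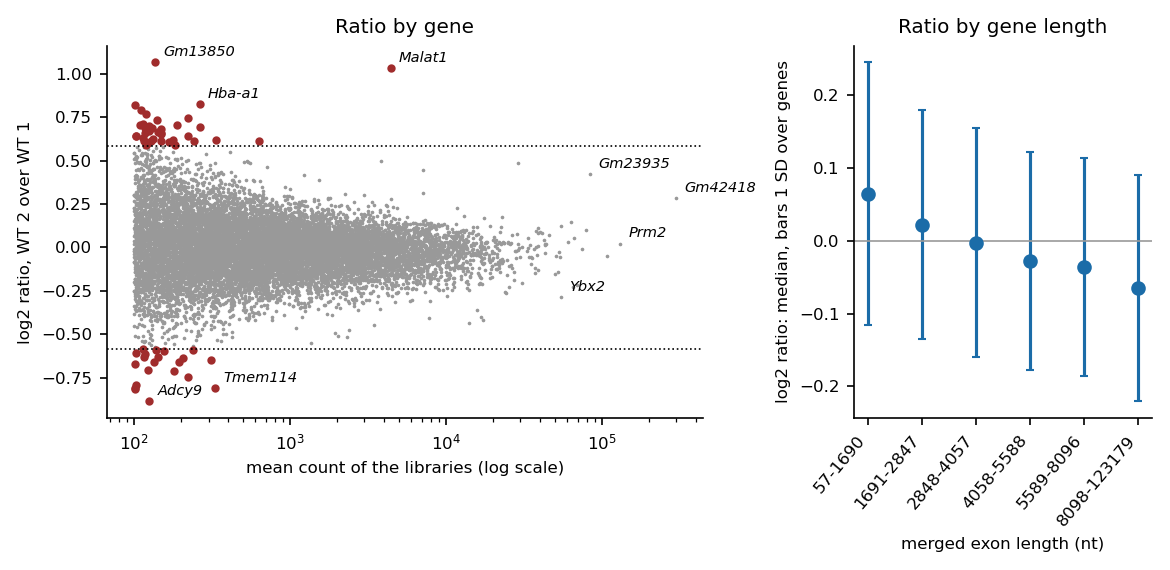
Left, log2 ratio of WT 2 to WT 1 after TMM scaling against the mean count (log scale) for 12782 genes, with genes past 1.5-fold (dotted lines) in red and selected genes named. Right, median log2 ratio in 6 classes of merged exon length, with bars of 1 SD over genes, falling from 0.06 in the shortest class to −0.07 in the longest.

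Malat1 stood apart. This nuclear lncRNA had 2550 counts in WT 1 and 6290 in WT 2, a ratio of 2.05 (1.96 to 2.15), and it was the only gene with a mean above 1000 counts past 1.5-fold. Gm13850, a lincRNA, had 77 and 194 counts and a ratio of 2.09 (1.60 to 2.76). Neat1, another nuclear lncRNA, had 534 and 888 counts, 0.47 on the log2 scale.

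Globins and macrophage genes were also higher in WT 2. The ratio of Hba-a1 was 1.77 (1.47 to 2.14) and that of Hbb-bs 1.68 (1.37 to 2.06). All 10 macrophage markers were higher in WT 2, with a median log2 ratio of 0.29, where 13465 of 26506 genes counted in both libraries were higher in WT 2 and their median was 0.00. C1qc, a subunit of complement C1q, was past 1.5-fold with 80 and 149 counts, Cd68 had 37 and 86, and Mrc1, the most highly counted marker, had 673 and 842 (0.05 on the log2 scale). The summed counts of the list were 1843 and 2623, a ratio of 1.18 (1.11 to 1.25). No other cell type or tissue list with more than 5 members counted in both libraries was higher in every one of them, and the germ cell lists had median log2 ratios from −0.05 to 0.06. Lists with few counts varied. Adipose markers were higher in 7 of 9 (median 0.52, summed ratio 1.15, 0.985 to 1.34), epididymal markers in 3 of 4 (0.50, 1.30, 1.00 to 1.68) and lymphocyte markers in 3 of 5 (0.73, 1.41, 0.954 to 2.10). Endothelial markers were higher in WT 2 in 6 of 10 (0.03, 0.958, 0.873 to 1.05) and fibroblast markers in 4 of 7 (0.06, 1.06, 1.00 to 1.13). The part of blood or macrophage content in the other differences was not tested.

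The other genes among the 12 largest ratios had few counts. They were Vmn2r68 (65 and 138 counts), Gm43510 (72 and 150), A230057D06Rik (78 and 160), 4930474M22Rik (93 and 186), the kallikrein gene Klk1b26 (77 and 152), 4930437M23Rik (127 and 249), A530020G20Rik (74 and 145) and 9230105E05Rik (84 and 164). Their ratios ran from 1.62 to 1.76. A230057D06Rik overlaps several miRNA genes on its strand, 4930437M23Rik has near-identical copies, and 4930474M22Rik, A530020G20Rik and 9230105E05Rik are antisense to Smoc2, Slc44a3 and Hmga2.

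Higher in WT 1 were Adcy9, an adenylate cyclase gene, with 152 and 99 counts and a ratio of 0.541 (0.415 to 0.701), and Tmem114, with 390 and 268 counts and 0.570 (0.486 to 0.668). Bc1, a small cytoplasmic RNA gene of 168 nt, had 256 and 184 counts, but its 4 near-identical transcripts of other genes held 1096 and 1208, so its ratio is uncertain. Dmrta2, a DM domain transcription factor gene, had 352 and 270, Kcnd3, a potassium channel gene, 208 and 153, Sept14, a septin gene, 220 and 168, and Btd, which encodes biotinidase, 121 and 83. The pseudogenes Smarca5-ps (120 and 82) and Gm5174 (141 and 104), and 1810024B03Rik, Gm45521 and E430018J23Rik, with 115 to 152 counts in WT 1, completed the 12 smallest ratios. Smarca5-ps is 96.8% identical to Smarca5.

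Among the genes with a mean of at least 3000 counts, ratios well below 1.5-fold exceeded counting error, but with 1 library per mouse they are not tested as differences between mice. The genes named here were chosen after their values had been seen. The 10 highest ratios included Gm24270 at 1.36 (1.31 to 1.41), Gm23935 at 1.34 (1.33 to 1.35), Gm42418 at 1.22 (1.21 to 1.22) and the mitochondrial rRNA gene mt-Rnr1 at 1.24. Lars2, the mitochondrial leucyl-tRNA synthetase gene, had 21494 and 36260 counts and a ratio of 1.40 (1.38 to 1.42), and Nmnat3, an enzyme of NAD synthesis, 2830 and 4807 and 1.41 (1.35 to 1.48). Outside that set, mt-Rnr2 had a log2 ratio of 0.23 and Rn7sk, a small nuclear RNA, of 0.22.

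The 10 lowest ratios were all of long genes, with 9763 to 41155 nt of merged exon. Spen, a nuclear corepressor gene, had 3695 and 3265 counts and a ratio of 0.734, and Ubr4, a ubiquitin ligase gene, 14852 and 13242 and 0.740 (0.723 to 0.758). Plec, which encodes the linker protein plectin, had 0.759 (0.743 to 0.775), and the dynein heavy chain genes Dync1h1 and Dnah3 had 0.778 and 0.804.

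Ratios fell with gene length among the genes compared. Spearman's rho between the log2 ratio and merged exon length was −0.28 across 12782 genes, which are not independent replicates. In the shortest of 6 length classes (57 to 1690 nt) 69.1% of genes were higher in WT 2, and in the longest (8098 to 123179 nt) 31.8%. Of the leading genes, Prm1 and Tnp2, which are short, had log2 ratios of 0.12 and 0.10, and Akap12 and Atp8b3, with 6461 and 4713 nt, had −0.21 and −0.23. Single genes often departed from the trend. Prm2, with 894 nt, had 0.02, Ybx2, with 1885 nt, −0.29, Odf2, with 9919 nt, −0.05, Pabpc1, with 6540 nt, −0.01, Lars2, with 11089 nt, 0.49 and Malat1, with 6983 nt, 1.03. RNA quality values of the samples were not used here, and their part in this trend was not tested.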

How the data were processed

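The authors trimmed reads with Trim Galore and cutadapt, mapped them with STAR to the GRCm38 genome, and deposited the raw gene counts, not normalized. Tool versions and the strand column are not given in the sources used here. The values show counting by strand. STAR's gene counts hold uniquely mapped reads outside shared gene regions, and FVB/NJ reads were aligned to another strain's genome. Depth was 21939393 and 26081756 counts, so genes with few counts are imprecise.

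The WT columns were used. Types, positions and lengths came from GENCODE mouse release 21 (Ensembl release 96), start sites from RefSeq. TMM scaling and the coefficient of variation (filterByExpr, minimum count 10) used edgeR 4.0.16, and DESeq2 1.42.0 gave the alternative size factors, both in R 4.3.3. Ratios used genes with a mean of at least 100 counts, and the steps were tested on simulated data. Near-identical transcripts (BLAST 2.17.0) had at least 95% identity over at least 50% of the shorter transcript. Members and lists were chosen with earlier results of these data known. Named genes are the 30 protein-coding genes highest by CPM, 15 by TPM, 10 lncRNA genes, 5 pseudogenes, list and pair members, the 12 largest and 12 smallest ratios, 5 X-linked and the mitochondrial genes. Others were named after their values were seen. Values of 1 pair and 1 list member are not reported here.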

Additional observations from a re-analysis of the deposited data

How the results depend on the processing

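The number of genes at the TPM threshold was 17433 and became 11244 at a threshold of 5. The protein-coding share of counts was 93.9% and became 94.5% without mitochondrial genes and 95.03% without Gm42418, and the share of the 100 most highly counted genes became 14.97% without Gm42418. The lncRNA share of 3.98% became 2.79% without Gm42418. The germ cell share of the summed marker TPM was 96.7% and 96.8% with the longest transcript as gene length. Without genes shorter than 200 nt it stayed at 96.7%, but 15 list sums moved by more than the SD of the libraries and 2 did not. The elongating spermatid sum, for example, went from a mean of 62532.8 to 74568.2 TPM. The ratio of X-linked to autosomal medians was 0.461, and became 0.414 with the longest transcript, 0.448 without a filter beyond 1 count in both libraries and 0.603 at a TPM of at least 5. With the longest transcript, Rec8 over Rad21 turned to 0.29 on the log2 scale, 8 of 28 pairs moved by over 1.5-fold, and the 21 pairs at least 4-fold higher became 19. Mean log2 ratios moved from 2.53 to 1.87 for Ldhc, 2.30 to 1.495 for Ppp3cc, 3.98 to 2.84 for Rpl10l, 5.91 to 4.73 for Rpl39l, 10.29 to 9.45 for Gk2, 3.00 to 3.73 for Cox6b2, −1.01 to −1.92 for Aldoart1 and −0.54 to −1.71 for Pabpc2. Genes past 1.5-fold, 37 higher in WT 2 and 21 higher in WT 1, became 120 and 78 with a mean of at least 50 counts, 3163 and 2247 without a filter beyond 1 count, and 2 and 0 at 2-fold. RLE size factors (36 and 21), total counts (42 and 17) and ratios centred within length classes (36 and 22) gave similar numbers, and 49 of the 58 genes called after centring were among those called before. Centring, leaving out Gm42418 and leaving out genes shorter than 200 nt were chosen after seeing the data.

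With either library left out, the number of genes ranged from 18242 to 18281, the protein-coding share from 93.5% to 94.2%, the top 100 share from 15.8% to 16.1%, the germ cell marker share from 96.7% to 96.8%, and the X ratio from 0.457 to 0.465, and 25 pairs stayed positive in each. Ratios between the libraries and their coefficient of variation need both, so no such value exists. No paired analysis was possible because no groups were compared. The cause of each shift was not tested.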
